A study of Canis lupus familiaris with 30 samples.

Results

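The libraries described here came from the dogs whose lymphoma carried the immunophenotype label T-cell, which were 3 of the 15 dogs of the series and 6 of its 30 libraries. Dogs 028, 036 and 038 were taken by that label alone, and each gave 1 library at the six-week timepoint of CHOP and 1 library at the initial timepoint, joined by the number in the sample title. They were set against the 7 dogs labelled B-cell, which gave 7 six-week and 7 initial libraries. The 5 dogs of unknown immunophenotype entered no comparison. Each sample was drawn by fine needle from an enlarged node of a client-owned dog. Any dog could have had a single prednisone injection before the initial aspirate, and which dogs had one is not given in the sources used here. No untreated dog was followed over the same weeks, so that treatment and time cannot be told apart. The age, breed and sex of each dog were not used here.

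CHOP joins cyclophosphamide, which cross-links DNA, doxorubicin, which poisons topoisomerase II, vincristine, which blocks the mitotic spindle, and the glucocorticoid prednisone. T-cell lymphoma grows from lymphocytes that carry the CD3 complex of the T-cell receptor and lack B-cell proteins such as the transcription factor PAX5. An aspirate of such a node also holds reactive lymphocytes, plasma cells, macrophages and cells of vessels and stroma, and all of them contribute RNA to a bulk library. The roles given below are those known for the human and mouse genes of the same name.

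The measure was FPKM, the number of fragments of a gene scaled by its transcript length and by the depth of the library. A change is the six-week minus the initial value of log2(FPKM+1) within a dog, so that 1 is a doubling for a well expressed gene, and the change of a gene with low FPKM is understated. Of 32704 Ensembl gene IDs, 14558 had a mean FPKM above 1 over the 6 libraries and were tested, and 3943 of them (27.1%) could be given a symbol. Those symbols came from published lists of genes ordered by p-value in this series, so that the named genes are not a random part of the genome. Total counts were 4318394 to 15255940 in the 3 six-week libraries and 12592735 to 21025004 in the 3 initial libraries, within 4318394 to 43413353 over the series. Of the 30 libraries, dog 036 at 6 weeks had the lowest total.

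The markers did not support the T-cell label equally in the 3 dogs. Over 13 T-cell markers, the mean log2(FPKM+1) was 6.10 at 6 weeks against 6.03 at the initial timepoint in dog 028, 4.42 against 6.43 in dog 036, and 3.37 against 2.25 in dog 038. Over the 3 B-cell markers with a symbol (PAX5, CD22 and POU2AF1) it was 1.74 against 2.03 in dog 028, 4.36 against 0.90 in dog 036, and 5.17 against 5.88 in dog 038. The initial aspirates of dogs 028 and 036 were thus high in T-cell and low in B-cell markers, and that of dog 038 was the reverse.

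CD3E, the epsilon chain of the CD3 complex, had 188 FPKM at 6 weeks against 188 at the initial timepoint in dog 028, 64.7 against 328 in dog 036, and 37.9 against 14.6 in dog 038. PAX5 had 1.07 against 1.52 FPKM in dog 028, 12.7 against 0.29 in dog 036, and 13.3 against 62.8 in dog 038. In the B-cell labelled dogs the T-cell marker mean was 1.23 to 5.72 at 6 weeks and 1.03 to 5.44 at the initial timepoint, and the B-cell marker mean was 3.40 to 6.19 and 4.40 to 6.42. Both libraries of dog 038 lay inside the B-cell dogs' ranges for both marker lists, against their label, as did the six-week but not the initial library of dog 036. Among the B-cell labelled dogs, dog 029 had the highest T-cell marker means at both timepoints (5.72 at 6 weeks and 5.44 at the initial timepoint) and the lowest B-cell marker means (3.40 and 4.40). Values are therefore given dog by dog, and the overall median of a list also without dog 038 where that moved it by over 1.5 times.

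**Figure D1:**
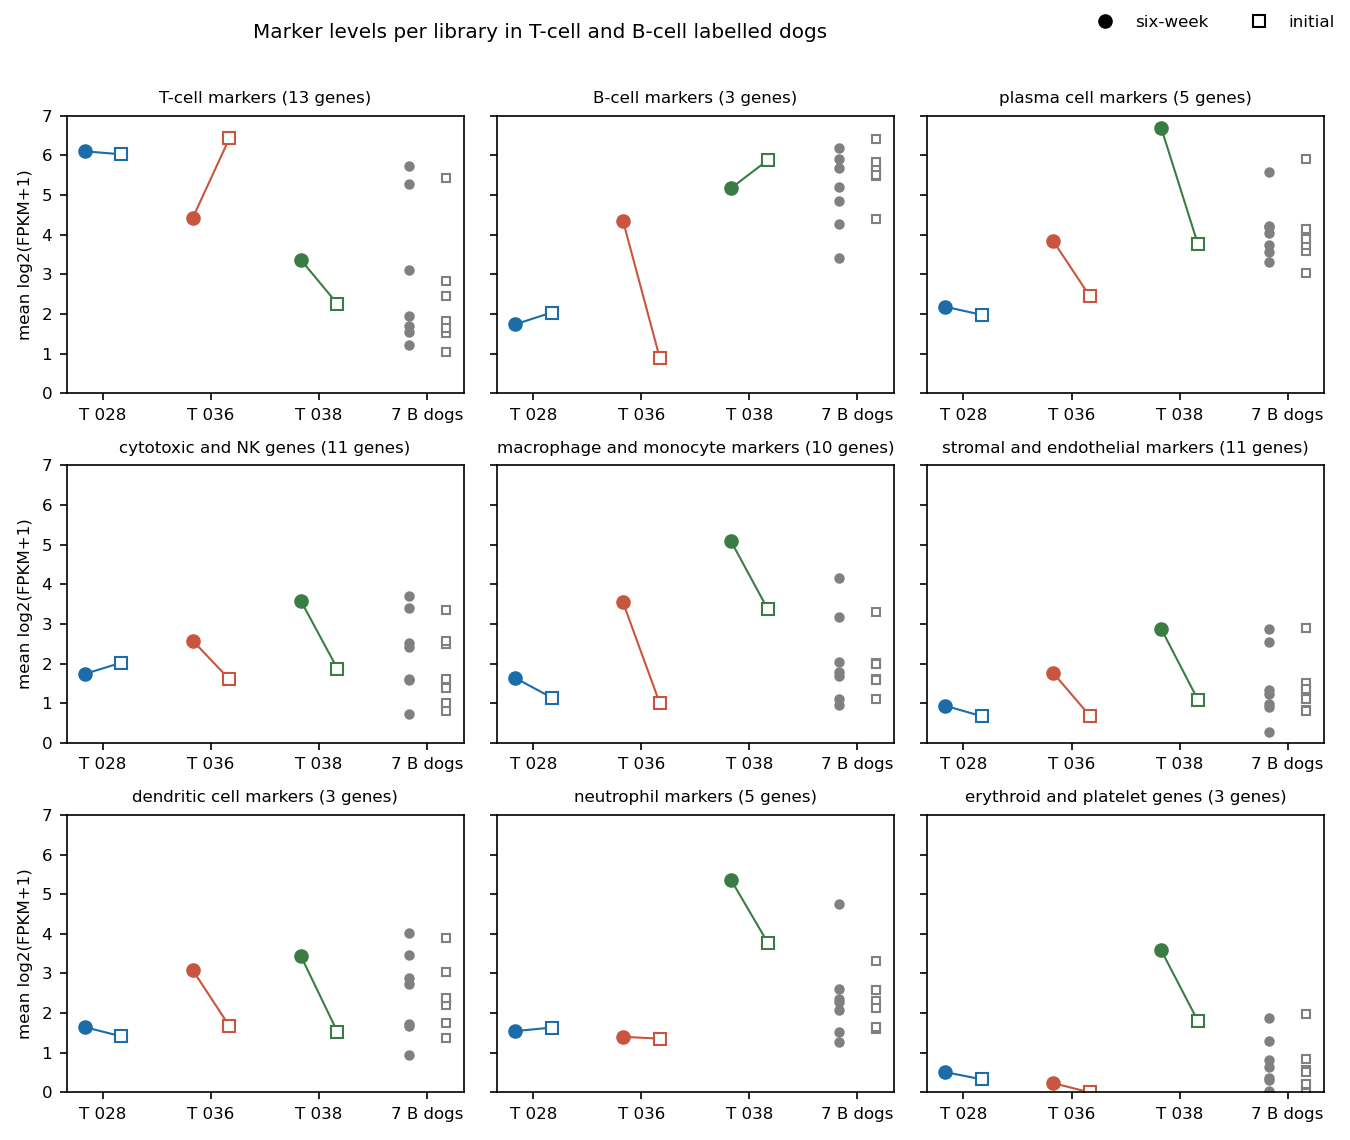
Mean log2(FPKM+1) of 9 marker lists in each library, with six-week libraries as filled circles and initial libraries as open squares, for T-cell dogs 028, 036 and 038 (coloured) and the 7 B-cell dogs (grey). Dog 028 hardly moved, dog 036 had lower T-cell (4.42 against 6.43) and higher B-cell markers (4.36 against 0.90) at 6 weeks, and dog 038 had B-cell marker means of 5.17 and 5.88 and the highest plasma cell mean.

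The 3 dogs differed most in how much moved. A change of at least 1 in size was seen in 3.46% of the genes tested in dog 028, 42.9% in dog 036 and 21.8% in dog 038, against 1.56% to 25.1% in the 7 B-cell dogs (median 5.89%). In dog 028, 398 genes were higher by at least 1 (2.73%) and 106 were lower (0.728%). In dog 036, 2675 were higher (18.4%) and 3572 lower (24.5%), and in dog 038, 1960 were higher (13.5%) and 1207 lower (8.29%). The SD of the change over genes was 0.437 in dog 028, 1.45 in dog 036 and 0.980 in dog 038, against 0.344 to 0.913 in the B-cell dogs. Dogs 036 and 038 thus lay above those 7 dogs in SD, while in the share of genes moved dog 038 lay below B-cell dog 034. Across genes, which are not independent, the changes of dogs 036 and 038 correlated at 0.231, those of dogs 028 and 038 at 0.124, and those of dogs 028 and 036 at 0.0386. The depth of the six-week library was lowest in dog 036. Its FPKM summed to 1540381, against 892182 in the initial library of that dog. The 20 highest genes held 49.4% of that sum, against 40.1%. The part of depth or of these sums in the size of the change was not tested. The six-week library of dog 036 had a Spearman correlation of 0.727 with its initial library, against 0.780 to 0.835 with the other T-cell libraries. Whether both libraries labelled 036 came from the same dog was not tested.

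**Figure D2:**
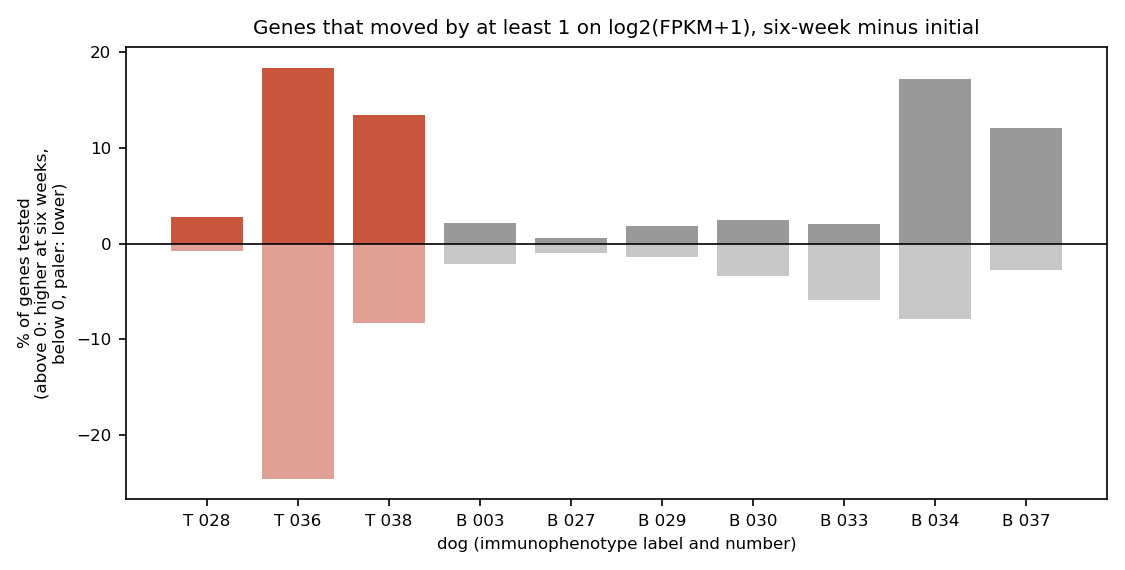
Percent of the 14558 genes tested that moved by at least 1 on log2(FPKM+1) between the six-week and the initial library of each dog, with higher genes above 0 and lower genes, in a paler shade, below 0. T-cell dog 036 (42.9%) stands above every B-cell dog and T-cell dog 038 (21.8%) above all of them but B-cell dog 034 (25.1%), whereas T-cell dog 028 had 3.46%.

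No gene passed limma's test of the six-week minus initial change over the 3 pairs at an adjusted p under 0.05 (0 higher and 0 lower, 0.0% each, smallest adjusted p 0.293). At an unadjusted p under 0.05 there were 520 higher (3.57%) and 180 lower genes (1.24%). edgeR's quasi-likelihood test on the counts of dogs 036 and 038 also called 0 and 0, with 712 higher and 193 lower at an unadjusted p under 0.05. An exact sign-flip test of 3 pairs cannot go below a two-sided p of 0.25. A gene was therefore described as consistent where it moved the same way in all 3 dogs and by at least 0.5 in each. This held for 306 higher genes (2.1%) and 63 lower genes (0.433%), of which 45 and 4 had a symbol. After quantile normalization the split was 206 higher and 121 lower. Without dog 038, 552 genes were higher and 237 lower by this step in both remaining dogs.

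The highest consistent genes with a symbol were HSD17B14, IL13RA2, RARRES2, GNG11, C1QA, EFEMP1, APOE, BASP1, C1QB, SNX7, SEMA3D and FRMD6. APOE, a lipid carrier that macrophages secrete, had 62.8, 273 and 188 FPKM at 6 weeks in dogs 028, 036 and 038, against 12.3, 80.2 and 47.01 at the initial timepoint. The change was 2.26, 1.75 and 1.98, with a mean of 1.998 ± 0.260 (limma's moderated SE, which borrows spread from other genes, n = 3 dogs). The limma p was 0.000378 before and 0.733 after adjustment. The step was alike in the 3 dogs although their levels were not: the lowest six-week value lay below the highest initial value.

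C1QA and C1QB encode chains of complement C1q, which tissue macrophages make. C1QA had 5.55, 18.2 and 72.4 FPKM at 6 weeks in dogs 028, 036 and 038, against 0.951, 1.27 and 19.8 at the initial timepoint (mean change 2.21 ± 0.395, moderated SE, n = 3). C1QB had 6.26, 14.7 and 144 FPKM, against 1.73, 2.304 and 34.5 (mean change 1.90). Dog 038 had the highest C1q values at both timepoints.

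For the 3 genes that headed the list the change was far smaller in dog 028 than in dogs 036 and 038. HSD17B14, a steroid dehydrogenase, had 0.870, 26.8 and 12.6 FPKM at 6 weeks against 0.273, 0 and 0.617 at the initial timepoint. HSD17B14 passed the filter only through its six-week values, so the filter favoured an increase. IL13RA2, a decoy receptor for interleukin 13, had 2.39, 47.2 and 13.5 FPKM against 1.26, 0.312 and 1.65. RARRES2, which encodes the chemoattractant chemerin, had 8.10, 56.8 and 83.2 FPKM against 5.33, 1.36 and 15.8. In each of these 3 genes every six-week value was above the initial value of the same dog, by 0.52 to 0.59 in dog 028 and by 2.32 to 5.20 in the other 2 dogs. The remaining 6 (GNG11, EFEMP1, BASP1, SNX7, SEMA3D and FRMD6) had mean changes of 1.74 to 2.28, with 0.54 (SEMA3D) to 1.01 (BASP1) in dog 028.

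Of the 272 genes tested that belong to one of the 26 gene lists, 8 were consistent and higher and 0 consistent and lower. Beside them stand 2.1% and 0.433% of all genes tested, and 45 and 4 of the 3943 genes with a symbol. The share higher was near that of all genes and above that of genes with a symbol, which every list member has. The lists were chosen with earlier results of these data known, so nothing is read from these counts. The genes are given for their values. CSF1R, the receptor for the macrophage growth factor CSF1, had 4.70, 8.57 and 32.7 FPKM at 6 weeks in dogs 028, 036 and 038, against 1.99, 2.28 and 9.35. BCL2A1, an inhibitor of apoptosis of the BCL2 family, had 6.59, 31.0 and 20.2 FPKM against 3.45, 3.06 and 7.58. PDCD1LG2, the PD-L2 ligand of the T-cell checkpoint receptor PD-1, had 1.83, 6.26 and 12.99 FPKM against 0.602, 1.002 and 1.77. The others were C1QA, C1QB, the macrophage receptor VSIG4, the endothelial cadherin CDH5 and the chemokine CCL19, which draws T cells and dendritic cells into the T zone.

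Only 4 lower consistent genes had a symbol. OCA2, a melanosome transporter, had 2.34, 1.76 and 1.91 FPKM at 6 weeks in dogs 028, 036 and 038, against 4.34, 8.65 and 47.5 at the initial timepoint. NKRF, a repressor of NF-kappa-B target genes, had 9.68, 10.8 and 5.75 FPKM against 14.5, 18.3 and 16.8. LETMD1 and HMGB3 had mean changes of -0.87 and -0.70.

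The smallest p of all genes tested belonged to a gene ID without a symbol here. ENSCAFG00000029877 had 73.1, 27.1 and 32.1 FPKM at 6 weeks in dogs 028, 036 and 038, against 1116, 977 and 893 at the initial timepoint. The mean change was -4.60 ± 0.342 (moderated SE, n = 3, limma p of 2.0e-05 before and 0.293 after adjustment). Over all 30 libraries it took values of 16.9 to 133 FPKM in 15 libraries (11 six-week, 4 initial) and of 780 to 5024 FPKM in the other 15 (4 six-week, 11 initial), with none in between. The level thus lay in separate ranges in the B-cell and unknown dogs too, and the T-cell dogs each had a low six-week and a high initial library. ENSCAFG00000016170, also unnamed, had 3.97, 0 and 0 FPKM against 6.68, 4.48 and 10.4. Another unnamed gene, ENSCAFG00000029323, was listed at 0 in the 3 initial libraries and had 2.14, 20.3 and 312 FPKM at 6 weeks, values through which alone it passed the filter. It was higher in none of the 7 B-cell dogs.

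**Figure D3:**
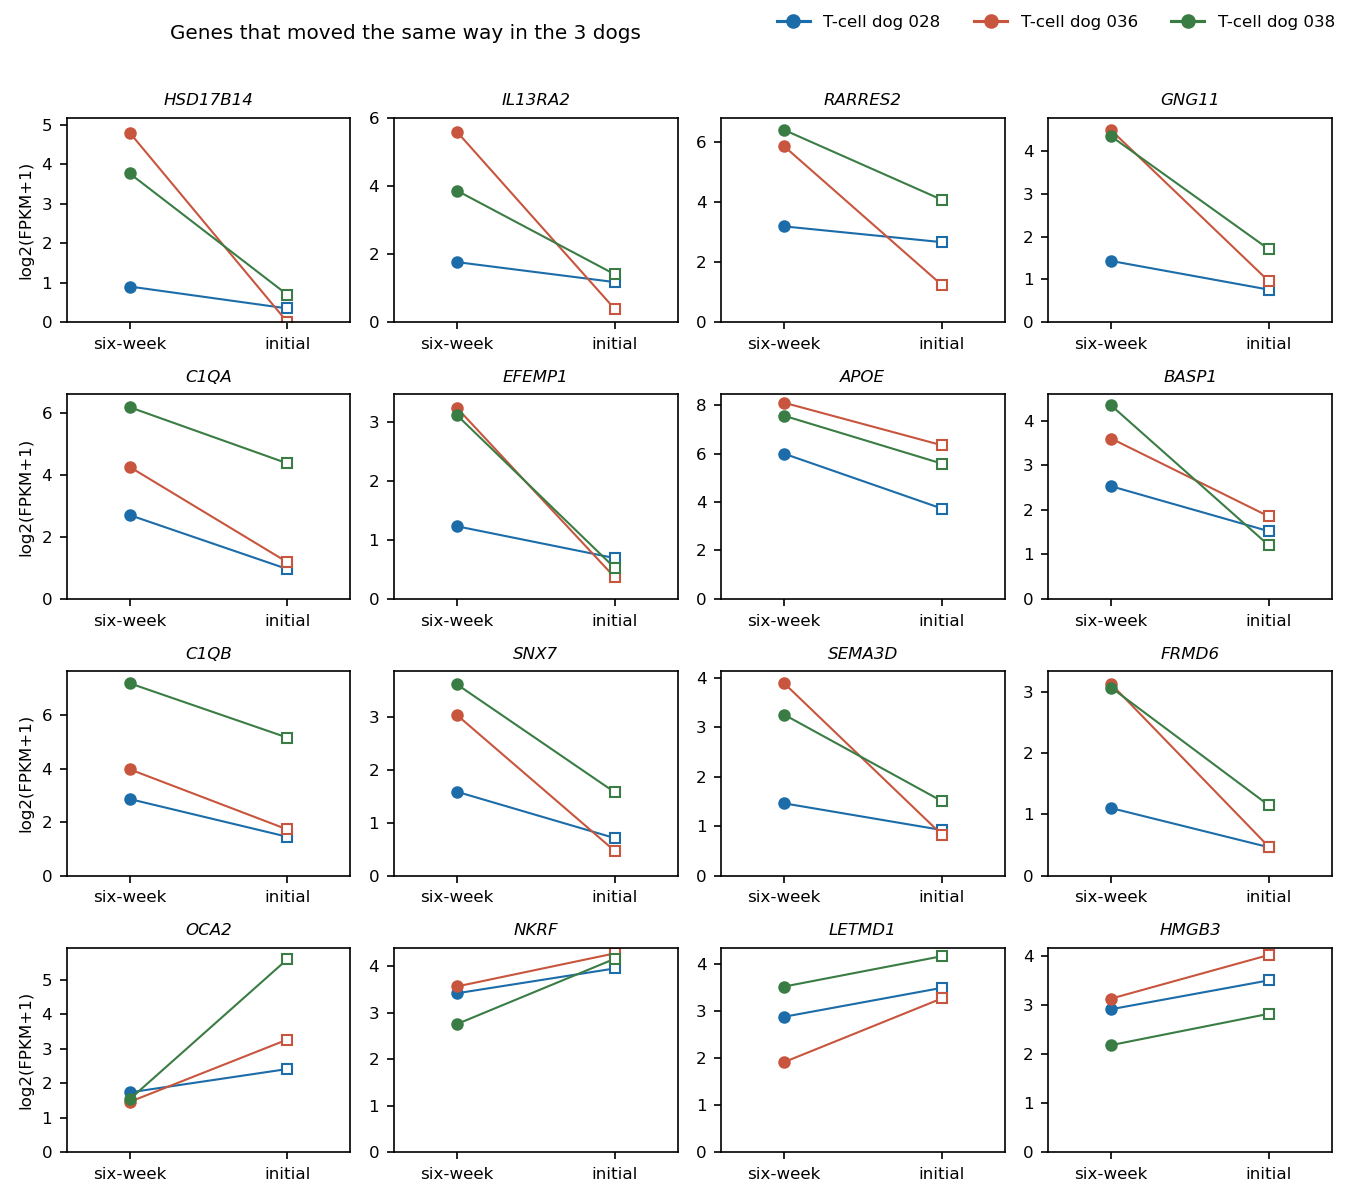
Values of log2(FPKM+1) at 6 weeks (filled circles, left) and at the initial timepoint (open squares, right) in T-cell dogs 028, 036 and 038 for the 16 consistent genes named here, the 12 higher in the upper rows and the 4 lower in the last row. The lines of APOE run nearly parallel (2.26, 1.75 and 1.98), whereas those of HSD17B14 and IL13RA2 are shallow in dog 028.

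Macrophage genes were higher in nearly every comparison within a dog. Of 10 measured members, 10 were higher in dog 036, 10 in dog 038 and 9 in dog 028, where FCGR1A, a receptor for immunoglobulin G, had 0.130 FPKM against 0.676. The median change was 0.25 in dog 028, 2.38 in dog 036 and 1.79 in dog 038, and that of the mean over dogs was 1.78, or 1.72 without dog 038, against -0.09 over all genes tested. Summed over the list, FPKM were 28.0, 166 and 452 at 6 weeks in dogs 028, 036 and 038, against 13.8, 11.9 and 118, with no member at 0 in any of these libraries. In bulk RNA, a change in the share of a cell type and a change in the RNA per cell cannot be told apart, here and in the lists that follow. At an unadjusted p under 0.05, 7 of the 10 were higher, beside 3.57% of all genes tested, and 0 passed limma's adjusted threshold. MRC1, the mannose receptor, had 2.76, 46.3 and 55.6 FPKM against 2.53, 1.54 and 12.2, and CD36, a scavenger receptor, had 1.13, 21.9 and 22.9 FPKM against 0.937, 0.401 and 4.83. In dog 028 these 2 genes moved by only 0.09 and 0.14.

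Stromal and endothelial markers were at low levels. Of 11 members with a symbol 7 passed the filter, and COL3A1, VWF, KDR and FLT4 passed through their six-week values alone, being under 1 FPKM in the 3 initial libraries. The filter thus favoured a higher six-week value, and nothing is read from the count. Of all 11, 9 were higher in each of the 3 dogs. PECAM1, an adhesion molecule of endothelium that leukocytes also carry, had 6.30, 25.4 and 45.3 FPKM at 6 weeks against 5.23, 2.74 and 7.72. KDR, a receptor for the vascular growth factor VEGF, had 0.755, 8.83 and 5.24 FPKM against 0.594, 0.0667 and 0.705. The exceptions were the collagen genes COL1A1, lower in dog 036, and COL4A2, lower in dogs 028 and 036, which were both listed at 0 in the six-week library of dog 036. Of the receptor tyrosine kinases, KIT, KDR, FLT4 and MET passed the filter in the same way. KIT, the receptor for stem cell factor, had 0.746, 2.82 and 2.29 FPKM against 0.880, 0.351 and 0.436.

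T-cell markers took a different course in each dog. In dog 028 the median change was -0.005 and 6 of 13 were higher. In dog 036 none of the 13 was higher, 10 were lower by at least 1, and the median change was -1.75. In dog 038 all 13 were higher, 7 by at least 1, with a median of 1.25. The median of the mean change was -0.23 over the 3 dogs, -1.02 without dog 038 and 0.66 without dog 036, so that its sign rests on dog 036.

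GATA3, a transcription factor of T-cell development, had 37.0, 5.33 and 1.65 FPKM at 6 weeks in dogs 028, 036 and 038, against 36.9, 92.2 and 0.9951. THEMIS, which tunes T-cell receptor signalling in the thymus, had 166, 16.6 and 6.12 FPKM against 215, 123 and 2.89. BCL11B, a factor that commits cells to the T lineage, had 25.8, 5.28 and 2.39 FPKM against 14.5, 54.1 and 1.19. In dog 036 these were among the largest decreases of the list, while in dog 028 the changes over the list went from -0.54 for the adaptor TRAT1 to 0.79 for BCL11B and 1.09 for the phosphatase UBASH3A.

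The largest decreases of dog 036 included genes outside the marker lists. TTLL6, a tubulin-modifying enzyme, had 0.492 FPKM at 6 weeks against 64.3 at the initial timepoint, and DSP, the desmosome protein desmoplakin, had 2.04 against 57.5. PTPRD, a receptor tyrosine phosphatase, had 1.04 against 45.5 FPKM in dog 036, but 71.3 against 106 in dog 028. MED12L, a paralogue of a Mediator subunit, had 12.8 against 334 FPKM in dog 036 and 102 against 119 in dog 028. Both genes were at 1.18 FPKM or less in the initial library of dog 038.

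The 3 B-cell markers were higher in dog 036, where CD22, an inhibitory receptor of B cells, had 25.4 FPKM at 6 weeks against 1.12 at the initial timepoint. In dog 038 they split. PAX5 and CD22 were lower (13.3 against 62.8 and 34.1 against 71.8 FPKM), and POU2AF1, a B-cell coactivator that plasma cells also express, was higher (91.8 against 42.7 FPKM). In dog 028 they were at 5.16 FPKM or less in both libraries. The median of the mean change was 0.71, or 1.58 without dog 038 and -0.75 without dog 036.

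Plasma cell genes were higher in every dog, least in dog 028 and most in dog 038. All 5 tested members were higher in all 3 dogs, beside 13.6% of all genes tested, with median changes of 0.18, 1.79 and 3.00. In the 7 B-cell dogs the median was -0.59 to 0.51 and above 0 in 5, so that dog 028 lay inside their range. At an unadjusted p under 0.05, 2 of 5 were higher, beside 3.57% of all genes, and 0 passed limma's adjusted threshold. XBP1, the transcription factor that expands the secretory apparatus, had 38.3, 79.5 and 471 FPKM at 6 weeks in dogs 028, 036 and 038, against 33.8, 57.96 and 34.9. PRDM1, which encodes BLIMP1, the factor that ends the B-cell programme, had 0.632, 4.95 and 47.7 FPKM against 0.582, 0.727 and 1.68, and passed the filter only through its six-week values. FKBP11, a folding protein of secretory cells, had 4.84, 21.8 and 312 FPKM against 3.48, 5.54 and 38.1. Summed over the list, FPKM were 46.7, 121 and 913 at 6 weeks against 40.2, 67.6 and 94.6, and the median of the mean change was 1.59, or 0.92 without dog 038.

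The largest increases of dog 038 among genes with a symbol were those of TXNDC5, SLPI, PRDM1, CAMP and ERN1. TXNDC5, a disulphide isomerase of the endoplasmic reticulum, had 155 FPKM at 6 weeks against 5.37 at the initial timepoint, and ERN1, the stress sensor that splices XBP1 mRNA, had 37.2 against 1.59. ELL2, an elongation factor used for immunoglobulin mRNA in plasma cells, had 139 against 21.5 FPKM in dog 038 and 18.6 against 2.87 in dog 036. Among the largest decreases of dog 038 were OLFM1 (1.55 against 47.1 FPKM), the phosphate regulator PHEX (2.85 against 29.1 FPKM) and S1PR1, the receptor that lets lymphocytes leave the node (4.27 against 34.5 FPKM).

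Dog 038 also had more RNA of neutrophils and of blood at 6 weeks. S100A8, a calcium-binding protein of neutrophils, had 119 FPKM at 6 weeks against 15.3 at the initial timepoint, CAMP, the antimicrobial cathelicidin, had 44.2 against 1.83, and AHSP, the haemoglobin-stabilizing protein of red cell precursors, had 36.4 against 7.83. In dog 036, S100A8 and AHSP were at 0 in both libraries, and in dog 028 the same 3 genes were at 2.102 FPKM or less. The median of the mean change of the 5 neutrophil markers was 0.92, and -0.06 without dog 038. The part of blood in the aspirate in the other changes of dog 038 was not tested.

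Cytotoxic and NK genes were mostly lower in dog 028, mixed in dog 036 and higher in dog 038. Of 11 members, 2 were higher in dog 028, 8 in dog 036 and 11 in dog 038, with median changes of -0.26, 1.29 and 1.76. In dog 036, 2 members were lower by at least 1. Summed over the list, FPKM were 65.4, 91.4 and 141 at 6 weeks in dogs 028, 036 and 038, against 75.3, 103 and 32.2. GZMK, a granule protease, had 2.45, 15.98 and 19.6 FPKM at 6 weeks in dogs 028, 036 and 038, against 3.81, 1.59 and 2.60. CCL5, a chemokine of activated T cells, had 7.26, 8.66 and 38.2 FPKM against 8.37, 18.9 and 7.84, so that dog 036 was lower and dog 038 higher. KLRK1, the NKG2D receptor, was at 0 in both libraries of dog 036.

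Mitosis genes were lower in dog 036 and close to their initial level in the other dogs. None of the 35 members was higher in dog 036 and 22 were lower by at least 1, with a median of -1.27, whereas the median was -0.17 in dog 028 and -0.23 in dog 038. MKI67, a marker of cycling cells, had 52.6, 15.98 and 66.3 FPKM at 6 weeks in dogs 028, 036 and 038, against 68.7, 114 and 65.5. TOP2A, the topoisomerase that doxorubicin acts on, had 288, 115 and 42.8 FPKM against 342, 309 and 55.4. In all, 21 of the 35 were lower in all 3 dogs, beside 18.5% of all genes tested and 992 of the 3943 with a symbol. At an unadjusted p under 0.05, 2 (BUB1B and CENPF) were lower, beside 1.24% of all genes. The median of the mean change was -0.50, and -0.72 without dog 038, and the T-cell markers of dog 036 were lower in the same library, a part in the result that was not tested.

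Replication and DNA damage response genes had negative medians in all 3 dogs, less so than the mitosis genes in dog 036 and more so in dog 038. The median change was -0.10, -0.49 and -0.54 in dogs 028, 036 and 038 for 32 replication genes and -0.18, -0.77 and -0.79 for 30 DNA damage response genes. PARP1, which senses DNA breaks, had 30.3, 24.5 and 14.9 FPKM at 6 weeks against 37.7, 52.2 and 80.8. PRKDC, the kinase of DNA end joining, had 91.7, 36.3 and 37.5 FPKM against 110, 82.2 and 93.7. Both were lower at an unadjusted p under 0.05, and 20 of the 30 list members were lower in all 3 dogs, beside 18.5% of all genes tested and 992 of the 3943 with a symbol.

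The genes that respond to glucocorticoids took different courses in the 3 dogs. FKBP5, a chaperone partner of the glucocorticoid receptor that prednisone induces, had 87.3 FPKM at 6 weeks against 384 at the initial timepoint in dog 028, 344 against 123 in dog 036, and 47.4 against 100.1 in dog 038. TSC22D3, which encodes the induced protein GILZ, had 2.99, 17.3 and 9.09 FPKM against 5.80, 4.58 and 4.31. NR3C1, the glucocorticoid receptor itself, had 33.9, 12.7 and 13.02 FPKM against 43.5, 44.9 and 15.3, and was lower in each dog. The list of 7 had median changes of -0.09, 1.58 and 0.93. IL7R, the receptor for the survival cytokine interleukin 7, had 20.2, 68.4 and 20.6 FPKM against 57.4, 2.62 and 7.26, again lower in dog 028 and higher in the others. When each dog last had prednisone before an aspirate is not given in the sources used here, and its part in these values was not tested.

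Histone genes were among the largest increases of dog 028. H2AX, the variant that is phosphorylated at DNA breaks, had 75.4 FPKM at 6 weeks against 17.1 at the initial timepoint, H2AC6 had 649 against 162, and H2AC5 had 196 against 54.6. H2AX was near its initial level in the other dogs (64.7 against 64.5 FPKM in dog 036 and 52.8 against 59.5 in dog 038). H2AC17 had 136, 179 and 165 FPKM at 6 weeks in dogs 028, 036 and 038, against 46.5, 137 and 36.6. Most transcripts of replication-dependent histone genes end without a poly(A) tail, and the RNA of these libraries was described as poly(A) RNA.

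Of the genes that handle the drugs of CHOP, ABCB1, the multidrug efflux pump, had 0.404, 6.39 and 4.75 FPKM at 6 weeks in dogs 028, 036 and 038, against 0.397, 0.321 and 1.12. ABCB1 passed the filter only through its six-week values, so the filter favoured an increase. ABCG2, another efflux pump, had 1.37, 5.16 and 2.61 FPKM against 1.44, 3.115 and 0.644. ABCC5 was lower in dog 036, with 1.21 FPKM against 18.03. The 6 ABC transporter genes tested had median changes of 0.01, -0.62 and 0.88, and the sign of their overall median, 0.08, was -0.25 without dog 038. Of the BCL2 family, BCL2L1, which encodes the apoptosis inhibitor BCL-XL, had 3.64, 7.98 and 27.7 FPKM against 2.99, 3.996 and 3.23.

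Other immune genes differed mostly in dogs 036 and 038. The MHC class II gene DLA-DRA had 389.8, 1399.96 and 1966 FPKM at 6 weeks in dogs 028, 036 and 038, against 405, 190.3 and 1658, so that the large step was in dog 036. CXCL10, an interferon-induced chemokine, had 2.70, 11.4 and 19.9 FPKM against 2.34, 0.267 and 3.25. IDO1, the enzyme that degrades tryptophan, had 20.5, 48.6 and 9.98 FPKM against 20.4, 15.95 and 1.94. CD40LG, a helper signal of T cells, followed the T-cell markers, with 33.6, 11.8 and 8.45 FPKM against 33.4, 112 and 4.46. Interferon response genes had a median change of 0.18 over the dogs, which was 0.34 without dog 038, 0.39 without dog 036 and 0.31 after quantile normalization. The dendritic cell markers had a median of 1.299 (0.62 without dog 038), among them ZBTB46, with 0.620, 12.4 and 7.34 FPKM against 0.422, 0.910 and 2.17.

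Ribosomal protein genes went opposite ways in dogs 036 and 038. All 26 cytosolic ribosomal protein genes were higher in dog 036 (median 1.45) and none was higher in dog 038 (median -0.63), while the median was -0.03 in dog 028. RPS6, a protein of the small ribosomal subunit, had 1653, 4296 and 2149 FPKM at 6 weeks in dogs 028, 036 and 038, against 1709, 892 and 3178. Their overall median of 0.26 was -0.01 after quantile normalization, -0.33 without dog 036 and 0.81 without dog 038. The FPKM of the six-week library of dog 036 summed to 1540381 over all gene IDs, against 892182 in its initial library. The 8 mitochondrially encoded genes were lower in dog 036 (median -0.73) and had medians of 0.04 in dog 028 and -0.57 in dog 038. MYC, a driver of growth, had 17.4, 4.302 and 11.65 FPKM against 13.4, 14.09 and 14.05.

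**Figure D4:**
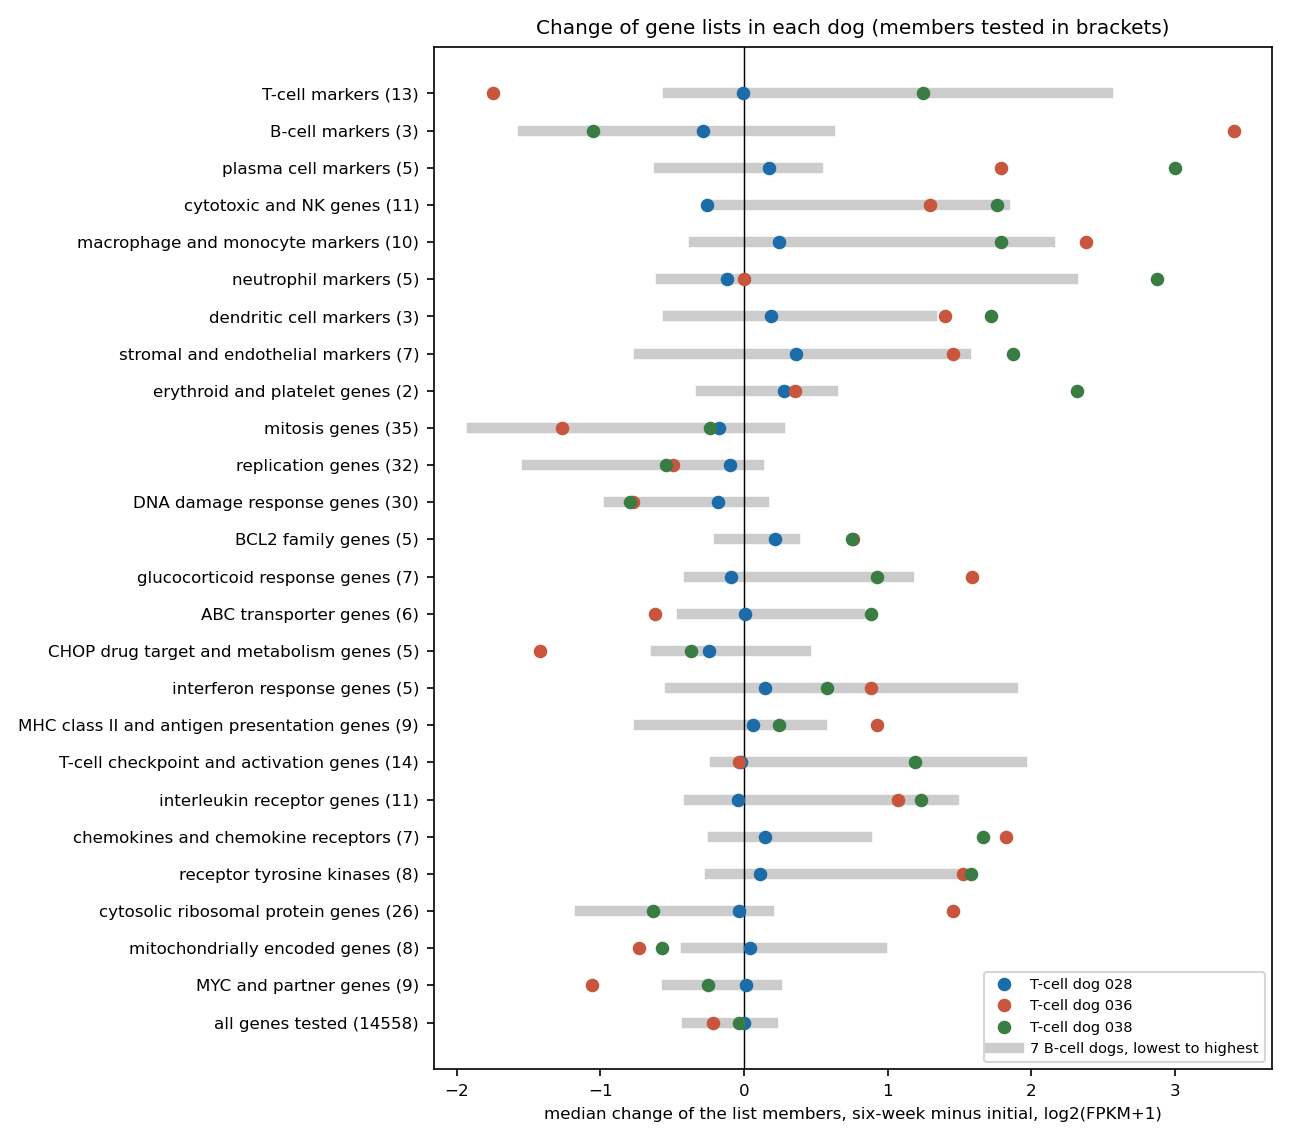
Median change of the members of 25 gene lists and of all genes tested between the six-week and the initial library (x axis, log2(FPKM+1)), with 1 coloured point per T-cell dog and a grey bar from the lowest to the highest of the 7 B-cell dogs. Dog 028 stays between -0.28 and 0.36, and dogs 036 and 038 lie apart for T-cell markers (-1.75 and 1.25), B-cell markers (3.41 and -1.05) and ribosomal protein genes (1.45 and -0.63).

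The change in the T-cell dogs was then tested against the change in the B-cell dogs. No gene differed at an adjusted p under 0.05 in limma's test of the difference (0 higher and 0 lower, 0.0% each, smallest adjusted p 0.214), with 1024 higher (7.03%) and 877 lower (6.02%) at an unadjusted p under 0.05. Among genes with a symbol, APOE had the smallest p of those higher. It was higher in 3 of 3 T-cell dogs and in 1 of 7 B-cell dogs, where its median was 85.1 FPKM at 6 weeks against 127 at the initial timepoint. The difference in change was 2.83 ± 0.525 (limma's moderated SE) with a limma p of 0.000159 before and 0.268 after adjustment. ELL2, NUPR2, H2AC17, C1QA and CTTN followed among the higher genes, with differences of 1.90, 2.08, 2.39, 2.34 and 2.02, each with a limma adjusted p of 0.301.

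XBP1 was higher in 3 of 3 T-cell dogs and in 0 of 7 B-cell dogs, where its levels were 25.5 to 195 FPKM at 6 weeks (median 36.2) and 31.0 to 324 at the initial timepoint (median 37.1). The difference in change was 1.68 ± 0.593 (limma's moderated SE, limma adjusted p 0.346). The changes were 0.18 and 0.45 in dogs 028 and 036 and 3.72 in dog 038, whose markers go against its label. In the B-cell dogs they were -0.73 to -0.00, and -0.01, -0.00 and -0.03 in dogs 029, 033 and 037. The size of the difference thus rests mostly on dog 038. POU2AF1 was likewise higher in 0 of 7 B-cell dogs but lower in T-cell dog 028. Over all genes tested, 6 were higher in the 3 T-cell dogs and lower in the 7 B-cell dogs, and 10 showed the opposite.

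The genes with the smallest p among those lower were RASGRP1, SSH2, TCHP, NKRF, ERCC3 and ALMS1. RASGRP1, an activator of Ras downstream of the T-cell receptor, had 74.1, 19.7 and 11.8 FPKM at 6 weeks in dogs 028, 036 and 038, against 98.4, 101.7 and 40.3. In the B-cell dogs its median was 44.8 FPKM at 6 weeks and 47.3 at the initial timepoint. The difference in change was -1.39 (limma adjusted p 0.301), and ERCC3, a helicase of nucleotide excision repair, differed by -0.86.

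Dog 028 decided whether this test called genes. With dogs 036 and 038 alone against the 7 B-cell dogs, 188 genes were higher (1.29%) and 55 lower (0.378%) at a limma adjusted p under 0.05, of which 36 and 15 had a symbol. Without any other single dog the count was 0 and 0. ELL2 differed by 2.60, CTTN, a regulator of the actin cortex, by 2.84, and TXNDC5 by 3.55 (limma adjusted p 0.00102, 0.00240 and 0.00634). Of the plasma cell list, FKBP11, PRDM1 and IRF4 were called, with differences of 2.66, 2.69 and 2.099, and XBP1 and SDC1 were not. PRDM1 had passed the filter only through its six-week values. CD36 (2.92) was the only macrophage list member called, without C1QA, C1QB, CSF1R or MRC1. PECAM1 (2.91) was the only member called of the stromal and endothelial list. CD209, which is on no list, differed by 3.95. Nothing about cell types is read from these calls. The leading lower genes were DNAJC12, a co-chaperone, and RASGRP1, with -3.31 and -1.93. Dog 038, whose B-cell markers go against its label, is 1 of the 2 dogs behind these calls, and with dogs 028 and 036 alone no gene was called.

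**Figure D5:**
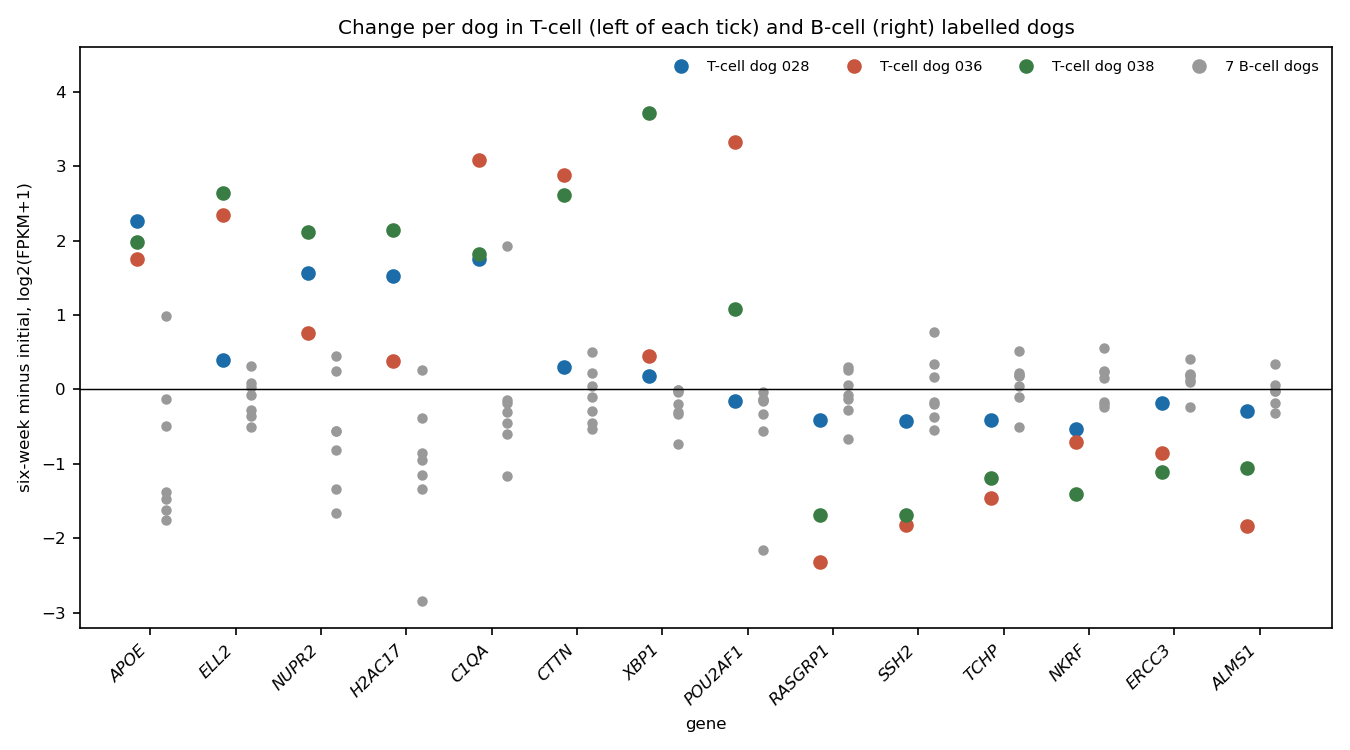
Six-week minus initial change on log2(FPKM+1) for 14 genes, with T-cell dogs 028, 036 and 038 as coloured points left of each tick and the 7 B-cell dogs as grey points right of it. APOE moved by 1.75 to 2.26 in the T-cell dogs and by -1.75 to 0.98 in the B-cell dogs, and for ELL2, CTTN, SSH2 and ALMS1 dog 028 lies near the B-cell dogs.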

How the data were processed

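RNA of lymph node aspirates was sequenced as single reads, and the submitters' processing notes name HISAT2 2.1.0, StringTie 1.3.3 and CanFam3.1. The deposited FPKM values relate fragments to transcript length and library depth, and are on a linear scale. The whole-number counts, deposited by the authors, are unscaled, and were used for depth and for an alternative test. In both libraries of dog 028 the counts did not follow the FPKM of the same gene ID (Spearman correlation 0.102 and 0.100). In dogs 036 and 038 the correlation was 0.905 to 0.976. The mismatch was also present in B-cell dogs 027, 029 and 030 (0.087 to 0.110) and in unknown dogs 024 and 035 (0.103 to 0.117). FPKM were therefore the main values.

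Changes were tested on log2(FPKM+1) with limma 3.58.1 in R 4.3.3 (moderated test, trend, two-sided, Benjamini-Hochberg over 14558 genes, threshold 0.05), with the dog as a block, since the study's methods match the libraries of a patient. The deviations of the libraries of a dog correlated at 0.504, -0.0586 and 0.516 in dogs 028, 036 and 038. The six-week library of dog 036 correlated higher with the initial library of dog 038 (0.134) than with its own. For dog 036 the pairing thus rests on the number in the title alone. The difference from the B-cell dogs was a contrast over 20 libraries. Each label names a separate dog, with 1 library per timepoint. edgeR 4.0.16 was the alternative on counts, and Python 3.11.15 made the summaries. The scripts were tested on simulated data.

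Genes named are the 12 largest consistent changes each way, the first 2 and up to 6 further members of each list by size of change, the 6 smallest p each way in the difference test, list genes with opposite signs in dog 038, and the 5 largest changes each way per dog. COL1A1, COL4A2, KLRK1 and the unnamed gene IDs lie outside this rule and were named after their values were seen. The dogs, lists and tests were chosen with earlier results of these data known. Symbols came from the study's supplementary gene tables (5086 gene IDs). Alternatives were another pseudocount (0.1), other filters, no trend, quantile normalization, no block, and leaving out each dog. Results of some genes are not reported here.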

Additional observations from a re-analysis of the deposited data

Results flagged for a closer look

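In the B-cell dogs used for comparison, 1 dog lay far from the other 6 in the median change of 6 of the 26 gene lists. B-cell dog 034 stood apart in cytotoxic and NK genes (1.82), macrophage and monocyte markers (2.13), neutrophil markers (2.29), interleukin receptor genes (1.46) and receptor tyrosine kinases (1.49). These are lists in which T-cell dogs 036, 038 or both also moved up. B-cell dog 037 stood apart in interferon response genes (1.87). Chance sets a dog apart in about 1 in 20 such groups, and the lists share libraries. XBP1 was higher in all 3 T-cell dogs and lower in all 7 B-cell dogs, with a difference in change of 1.68. The change was 3.72 in dog 038 against 0.18 and 0.45 in dogs 028 and 036, and was -0.03 to -0.00 in B-cell dogs 029, 033 and 037. Limma's test of that difference did not pass after adjustment (adjusted p 0.346).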

How the results depend on the processing

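The count of genes past limma's adjusted threshold for the change in the T-cell dogs was 0 higher and 0 lower under every alternative run but 2. With the spread estimated from 20 libraries 1 gene was higher, ENSCAFG00000023691 (3.77, 10.2 and 32.7 FPKM at 6 weeks in dogs 028, 036 and 038, against 0, 0 and 4.86, adjusted p 0.0335). Leaving out each dog gave 0 to 1 higher and 0 lower, the 1 being an unnamed gene without dog 036 (0.00377), at 0 in both libraries of that dog. Without the replicate block the counts were 0 and 0 in this test and 0 and 0 in the difference from the B-cell dogs, where leaving out each dog gave 0 to 188 higher and 0 to 55 lower, the highest counts without dog 028. Consistent genes, 306 higher and 63 lower, were 661 and 131 with a pseudocount of 0.1, 39 and 4 with a step of at least 1 in each dog, 149 and 22 at a mean FPKM above 5 (fewer genes tested), and 121 lower after quantile normalization. Leaving out each dog, a choice made after seeing the data, gave 552 to 1683 higher and 139 to 1577 lower, since 2 dogs then had to move. MYC and partner genes had a median of -0.40, and 0.05 without dog 036. Mitochondrially encoded genes had -0.32, and -0.98 after quantile normalization, and BCL2 family genes 0.55, and 0.91 with a pseudocount of 0.1. The other 128 list medians recomputed stayed within 1 SD between dogs. Leaving out a dog could hardly exceed that SD, which comes from the same dogs. Among the 128 were medians that changed sign, as for T-cell markers (-0.23, and 0.66 without dog 036). The 16 named consistent genes kept direction and side of the threshold in all 172 recomputed values. They were chosen for moving the same way in every dog, so leaving out a dog could not change direction. Direction was open only under quantile normalization and in edgeR's test. No gene with a symbol passed in these runs, so the side of the threshold adds nothing. A description of promoter motifs was not run.

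With 3 pairs, 2 residual degrees of freedom and dogs that differ this much, a missed threshold does not show a stable level. The six-week library of dog 036 had 4318394 counts, and low genes there are the least certain. FPKM give no counting error. Genes sharing reads with close copies, such as histone, MHC and ribosomal protein genes, are uncertain.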
